A study of Mus musculus with 25 samples.

Results

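The 9 genes Rgs2, Rgs3, Rgs4, Rgs10, Rgs16, Arrb1, Arrb2, Grk5 and Grk6 encode proteins that end signalling by G-protein-coupled receptors. They were taken by gene symbol from a table of 47069 genes, and each symbol had 1 row. Pituitary RNA of 25 hpg mice was sequenced, with 1 library per animal. The hpg mouse has lost part of Gnrh1, the gene of gonadotropin-releasing hormone (GnRH), so that every group, placebo included, lacked GnRH of its own. The groups were 6 GnRH females (animals 6 to 11), 5 placebo females (1 to 5), 8 GnRH males (18 to 25) and 6 placebo males (12 to 17). GnRH animals received 1 µg of GnRH and placebo animals saline into the peritoneum, 1 injection per day for 10 days, and pituitaries were frozen 1 h after the last injection. The labels give neither age nor strain background. Whole pituitaries were used, and all of them were taken after repeated dosing and at the same time after the last dose. Effects of the last dose and of repeated dosing therefore cannot be told apart.

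A receptor that has bound its hormone loads a G protein with GTP, and RGS proteins speed the hydrolysis of that GTP, which ends the signal at the G protein. Receptor kinases of the GRK family phosphorylate the active receptor, and beta-arrestins then bind it, uncouple it from the G protein and lead it into endocytosis. The GnRH receptor of gonadotropes signals mainly through Gq, and in mammals it lacks the cytoplasmic tail on which kinases and arrestins act in most other receptors. Among RGS proteins, RGS2 prefers Gq, and RGS3 dampens GnRH receptor signalling in cultured cells.

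All values are regularized log2 values, a scale on which the authors normalised the libraries to each other and shrank each gene towards its own mean. They are not corrected for transcript length, so levels are compared between animals and not between genes. A difference is the mean in GnRH animals minus the mean in placebo animals, tested with limma. P-values were adjusted (Benjamini-Hochberg) over the 19141 genes whose mean was at least 3, and an adjusted p under 0.05 counts as past the threshold. All 9 genes passed the filter on low values, the lowest being Rgs10 with a mean of 6.14 over the 25 libraries. The libraries correlated with each other at 0.992 to 0.998, and the hormone genes that define the tissue were high in all of them (Gh from 21.09, Prl from 16.59 and Pomc from 17.28 upward). Fshb, the beta subunit of follicle-stimulating hormone that GnRH is known to stimulate, served as a check of the treatment and was 5.35-fold higher with GnRH on average over the sexes (adjusted p = 4.55e-09). Atf3, a transcription factor that many stimuli induce, was 4.22-fold higher (adjusted p = 0.000638).

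Of the 9 genes, 2 rose with GnRH when the effect was averaged over the sexes, Arrb2 and Rgs2, and 0 fell. Over all genes tested, 1.71% passed in that comparison in either direction of which 1.42% were higher and 0.287% lower. Within females Arrb2 alone passed, where 0.0993% of all genes did, and within males again Arrb2 alone, where 0.496% did. The averaged comparison uses the same animals as the other 2 and is no separate evidence. The median difference of the 9 genes was 0.04 in the averaged comparison, against 0.00 over all genes tested (-0.00088 before rounding), and 6 of 9 differences were positive, against 49.4% over all genes.

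**Figure D1:**
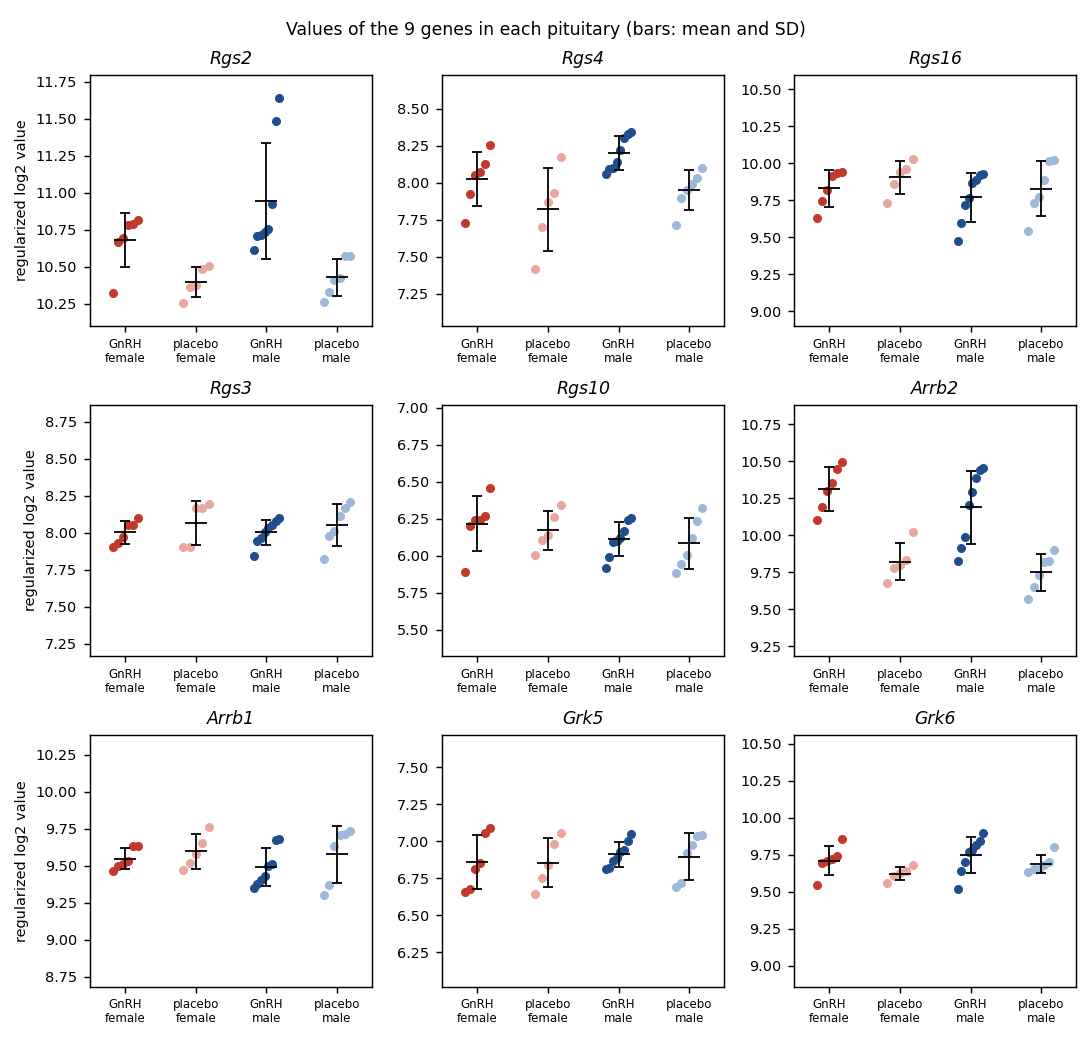
Regularized log2 values of the 9 genes, 1 panel each, with 1 point per pituitary, horizontal bars at the group mean and error bars of 1 SD (n = 6 GnRH females, 5 placebo females, 8 GnRH males and 6 placebo males). All panels span the same range of log2 units. Arrb2 in females and Rgs2 in males show no overlap of GnRH and placebo animals, and GnRH males 21 (11.64) and 18 (11.49) lie far above all other animals in Rgs2.

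Arrb2 encodes beta-arrestin 2, one of the pair of beta-arrestins found in most tissues, which also serves as a scaffold for MAP kinases. The gene lies on the plus strand of chromosome 11, from 70432635 to 70440828 in the mouse build GRCm38 (mm10). Its exons hold a microRNA gene, Mir7115, whose own row was listed at 0 in every library. Arrb2 had 10.30, 10.45, 10.10, 10.35, 10.19 and 10.50 in GnRH females 6 to 11, against 9.68, 10.02, 9.78, 9.80 and 9.83 in placebo females 1 to 5. The lowest GnRH female lay above the highest placebo female, so the groups did not overlap. Groups did not overlap for 1 of the 9 genes in females, where this held for 0.768% of all genes tested. The mean was 10.31 ± 0.15 in GnRH females and 9.82 ± 0.13 in placebo females (SD, n = 6 and 5), a difference of 0.49 (SE 0.10, adjusted p = 0.0458 by limma), or 1.41-fold.

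In males, Arrb2 had a lowest value of 9.82, a median of 10.25 and a highest of 10.45 in GnRH animals, against 9.57, 9.77 and 9.90 in placebo animals. GnRH male 21 (9.82) lay within the placebo range, and the other 7 of 8 lay above every placebo male. The mean was 10.19 ± 0.25 in GnRH males and 9.75 ± 0.12 in placebo males (SD, n = 8 and 6), a difference of 0.44 (SE 0.09, adjusted p = 0.0171 by limma), or 1.36-fold. Averaged over the sexes the difference was 0.47 (SE 0.07, 95% interval 0.33 to 0.61, adjusted p = 0.000174 by limma). This averaged call held in 25 of 25 fits that left out 1 animal and in 7 of 7 other settings. The calls within 1 sex were less secure. In females the call was lost in 13 of 25 fits without 1 animal, those without placebo females 1, 3, 4 and 5, GnRH females 6, 7, 9 and 11, placebo males 12, 13, 15 and 17 and GnRH male 20, with adjusted p of up to 0.157 and differences between 0.46 and 0.50. It was also lost without a filter (adjusted p = 0.142), after quantile normalization (adjusted p = 0.0561) and without a variance trend (adjusted p = 0.0583). In males it was lost without placebo male 12 (adjusted p = 0.0537) or 14 (adjusted p = 0.0703) and without a filter (adjusted p = 0.0558).

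Arrb1, which encodes beta-arrestin 1 and lies on chromosome 7 (99535466 to 99606771, plus strand), had no difference past the threshold. Its range was 9.47 to 9.64 in GnRH females and 9.47 to 9.76 in placebo females, and 9.35 to 9.68 in GnRH males and 9.30 to 9.73 in placebo males. The groups overlapped in both sexes. The averaged difference was -0.07 (95% interval -0.18 to 0.04, adjusted p = 0.645), an interval that does not reach the one of Arrb2. The difference between the 2 genes was not tested. Across the 25 libraries the values of Arrb1 and Arrb2 correlated at r = -0.40, as a description of animals from 4 groups.

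Rgs2 encodes an RGS protein of the small R4 subfamily and is known as a gene that many stimuli induce within an hour. It lies on the minus strand of chromosome 1, from 143999338 to 144004161. Rgs2 had 10.78, 10.69, 10.79, 10.82, 10.33 and 10.67 in GnRH females 6 to 11, against 10.36, 10.51, 10.49, 10.38 and 10.26 in placebo females 1 to 5. GnRH female 10 (10.33) lay within the placebo range and the other 5 of 6 lay above it. The mean was 10.68 ± 0.18 in GnRH females and 10.40 ± 0.10 in placebo females (SD, n = 6 and 5), and the difference of 0.28 (SE 0.14) did not pass (adjusted p = 0.529 by limma).

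In males, Rgs2 had 11.49, 10.71, 10.92, 11.64, 10.71, 10.61, 10.76 and 10.74 in GnRH animals 18 to 25, against 10.57, 10.57, 10.33, 10.43, 10.26 and 10.41 in placebo animals 12 to 17. All 8 of 8 GnRH males lay above every placebo male. Rgs2 was the 1 of the 9 genes whose groups did not overlap in males, where this held for 0.402% of all genes tested. The mean was 10.95 ± 0.39 in GnRH males and 10.43 ± 0.13 in placebo males (SD, n = 8 and 6), a difference of 0.52 (SE 0.12) that missed the threshold (adjusted p = 0.0527 by limma). Over the other settings its adjusted p in males lay between 0.0257 and 0.151; it passed in 5 of 25 fits without 1 animal, those without GnRH female 10 or GnRH males 19, 22, 23 or 24, and in 2 of 8 other settings. Averaged over the sexes, Rgs2 rose by 0.40 (SE 0.09, 95% interval 0.21 to 0.59, adjusted p = 0.0199 by limma), or 1.32-fold. The averaged call held in 25 of 25 fits without 1 animal, and was lost when all 33304 genes that varied were tested without a filter (adjusted p = 0.0615).

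Rgs2 in GnRH males rested in part on animals 18 and 21. The mean of 23 immediate early genes, which cells induce within minutes of a stimulus, was 10.84 and 10.88 in these 2 animals, against 9.48 to 10.01 in the other GnRH males and 9.06 to 9.62 in placebo males. Of the 23 genes, 4 rose with GnRH on average (Nr4a3, Fosb, Arc and Npas4, by 0.83 to 1.33) and 0 fell. Over all genes tested, 1.42% rose and 0.287% fell in that comparison. Without animals 18 and 21, the difference of Rgs2 was 0.31 in males (adjusted p = 0.0865 by limma). Averaged over the sexes it was 0.30 (adjusted p = 0.00244 by limma, past the threshold). Arrb2 stood the other way in the same 2 animals, with 9.99 and 9.82, which with 9.91 in animal 19 were the 3 lowest values of the GnRH males. Without animals 18 and 21 the Arrb2 difference in males was 0.53 (adjusted p = 0.0023 by limma). Leaving out the highest Rgs2 values lowers the Rgs2 difference, and leaving out low Arrb2 values raises the Arrb2 difference. Both directions were thus set by the choice of animals and are no separate evidence. At the low end, GnRH female 10 had an immediate early mean of 9.16, the lowest of the GnRH animals, and the lowest Rgs2 of them, while its Arrb2 of 10.19 was above every placebo female. Within each group the animal with the highest immediate early mean also had the highest Rgs2. These were GnRH male 21, GnRH female 9, placebo male 13 and placebo female 2. The lowest animal was the same for both in GnRH females but not in the other groups. Between GnRH and placebo animals, some pairs did not follow this order. GnRH male 22 had an immediate early mean of 9.48, below placebo males 12, 13 and 17 (9.51 to 9.62). Its Rgs2 was 10.71, against 10.41 to 10.57 in those placebo males. GnRH females 6 to 8 (9.43 to 9.46) lay below placebo female 2 (9.47), with Rgs2 of 10.69 to 10.79 against 10.51. The part that immediate early genes play in the Rgs2 difference was not tested.

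**Figure D2:**
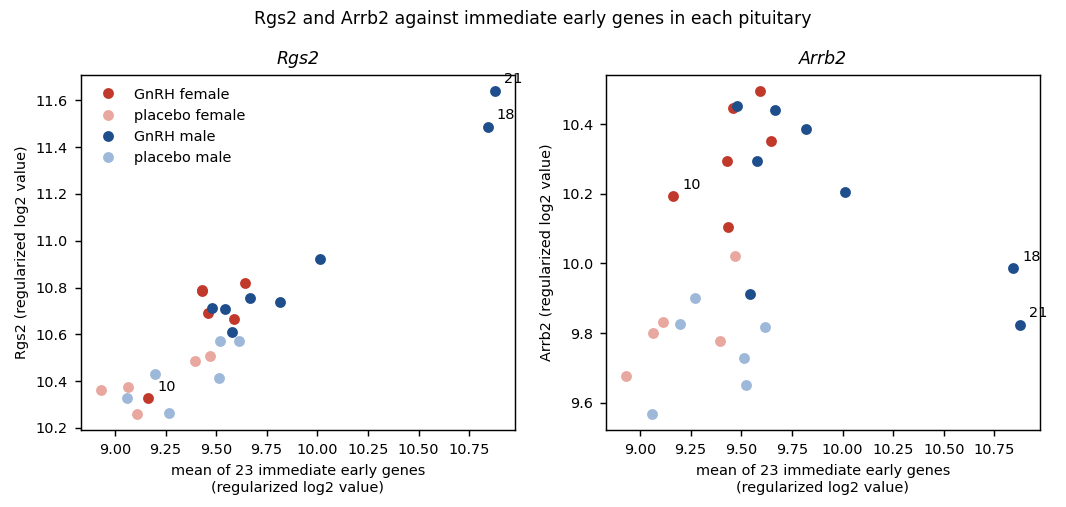
Rgs2 (left) and Arrb2 (right) in each of the 25 pituitaries, plotted against the mean of 23 immediate early genes in the same library, all as regularized log2 values and coloured by group; animals 10, 18 and 21 are labelled. GnRH males 18 and 21 are highest in Rgs2 (11.49 and 11.64), whereas in Arrb2 (9.99 and 9.82) they lie below most other GnRH animals.

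Rgs4, another R4 member that acts on Gq and Gi and lies on the minus strand of chromosome 1 (169741477 to 169747642), had small positive differences that did not pass. Its values were 7.92, 8.08, 8.06, 8.13, 7.73 and 8.26 in GnRH females 6 to 11, against 7.70, 7.42, 7.93, 7.87 and 8.18 in placebo females 1 to 5, and the groups overlapped. In males it ranged from 8.06 to 8.35 in GnRH animals, with a median of 8.18, and from 7.72 to 8.10 in placebo animals, with a median of 7.98. In males 5 of 8 GnRH animals lay above every placebo animal. The difference was 0.21 (SE 0.10, adjusted p = 0.527) in females, 0.25 (SE 0.09, adjusted p = 0.42) in males and 0.23 (95% interval 0.09 to 0.37, adjusted p = 0.102) on average. The averaged difference passed without placebo female 5 (0.27, adjusted p = 0.0265) and without GnRH female 10 (0.26, adjusted p = 0.0356), and in 0 of the other 23 fits without 1 animal. These 2 animals had the highest placebo and the lowest GnRH value of Rgs4 among females.

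The bases before the start of Rgs2 and Rgs4 are shown because these 2 RGS genes had the largest differences among the 5 and because a promoter window from RefSeq (GRCm38.p6) was at hand for them. Windows were found for 7 of the 9 genes, not for Arrb1 and Arrb2. Capitals mark TGACG, the core of the cAMP response element (CRE) that CREB and ATF proteins bind, read on either strand (CGTCA is the same core on the other strand). The 250 bases before the start, 5′ to 3′ on the gene's strand, are chr1:144004150-144004399 for Rgs2 and chr1:169747643-169747892 for Rgs4, both on the minus strand.
Rgs2: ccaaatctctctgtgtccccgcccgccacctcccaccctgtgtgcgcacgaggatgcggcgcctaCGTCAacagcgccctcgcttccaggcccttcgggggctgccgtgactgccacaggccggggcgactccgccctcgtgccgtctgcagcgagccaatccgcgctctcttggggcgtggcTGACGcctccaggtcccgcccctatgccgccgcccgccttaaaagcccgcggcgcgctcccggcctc
Rgs4: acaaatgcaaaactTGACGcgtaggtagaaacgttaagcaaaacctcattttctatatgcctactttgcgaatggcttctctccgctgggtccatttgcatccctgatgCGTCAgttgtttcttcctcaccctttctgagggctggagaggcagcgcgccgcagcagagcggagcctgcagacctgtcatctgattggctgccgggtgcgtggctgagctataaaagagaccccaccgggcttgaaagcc

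The core begins at -185 and -67 from the start in Rgs2 and at -236 and -141 in Rgs4. In windows of 300 bases, from 250 before to 50 after the start, 20.8% of all 32851 windows hold this core on at least 1 strand, and the windows of Rgs3, Rgs10, Rgs16, Grk5 and Grk6 hold none. The full element TGACGTCA (1.79% of all windows), the AP-1 site TGACTCA or TGAGTCA (5.2%), the EGR site GCGTGGGCG (0.612%) and the CArG box of SRF (1.63%) were found in 0 of the 7 genes' windows. The core lies within the full element, so these 2 searches overlap. The search for the core was added after the values were seen, and a match is a string of letters, not a measured site of binding.

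The other 3 RGS genes had no difference past the threshold in either sex or on average. Rgs16, also of the R4 subfamily and acting on Gi and Gq, lies on the plus strand of chromosome 1 (153740349 to 153745468) and ranged from 9.63 to 9.94 in GnRH females and from 9.73 to 10.03 in placebo females. In males it ranged from 9.47 to 9.93 with GnRH and from 9.54 to 10.02 with placebo, and its averaged difference was -0.07 (95% interval -0.19 to 0.05, adjusted p = 0.694). An antisense gene, Gm28513, shares 236 bases of its exons with Rgs16, and with the strand setting unknown its reads cannot be told apart; its own row lay between 3.03 and 3.25. Rgs3 (chromosome 4, 62559847 to 62704001, plus strand) had an averaged difference of -0.06 (95% interval -0.15 to 0.04, adjusted p = 0.68). Its values lay between 7.84 and 8.10 in all GnRH animals and between 7.82 and 8.20 in all placebo animals. Rgs10 (chromosome 7, 128373621 to 128418758, minus strand), an RGS protein of Gi that is prominent in macrophages and microglia, had an averaged difference of 0.04 (95% interval -0.09 to 0.16, adjusted p = 0.853), with GnRH and placebo animals overlapping in both sexes.

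The receptor kinases Grk5 and Grk6 belong to the subfamily that stays at the membrane without help from G-protein beta and gamma subunits. Grk5 (chromosome 19, 60889749 to 61095968, plus strand) ranged from 6.66 to 7.09 in GnRH females and 6.64 to 7.05 in placebo females, and from 6.81 to 7.05 in GnRH males and 6.69 to 7.04 in placebo males. Its averaged difference was 0.01 (95% interval -0.11 to 0.13, adjusted p = 0.969), and its sign turned in several settings. Grk6 (chromosome 13, 55445072 to 55460927, plus strand) had the narrowest spread of the 9 genes, with a pooled within-group SD of 0.09. In females 5 of 6 GnRH animals lay above every placebo animal, with a mean of 9.71 ± 0.10 in GnRH females and 9.62 ± 0.05 in placebo females (SD, n = 6 and 5). Its difference was 0.09 (adjusted p = 0.634) in females, 0.06 (adjusted p = 0.999) in males and 0.07 (95% interval -0.01 to 0.16, adjusted p = 0.471) on average.

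**Figure D3:**
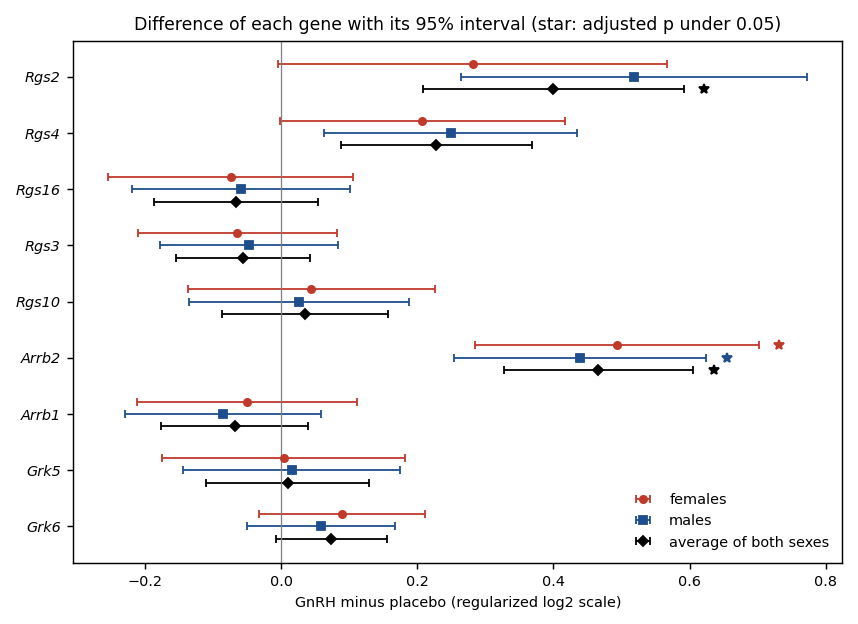
Difference between GnRH and placebo animals for each of the 9 genes on the regularized log2 scale, in females (circles), males (squares) and on average over the sexes (diamonds), with 95% intervals from limma; stars mark an adjusted p under 0.05. Arrb2 has a star in all 3 comparisons and Rgs2 in the average alone, while the intervals of Rgs16, Rgs3, Rgs10, Arrb1, Grk5 and Grk6 include 0 throughout.

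The sexes were compared directly. For the difference of the GnRH effect, males minus females, 0 of the 9 genes passed by limma, with 0 of 9 at an unadjusted p under 0.05; over all genes tested, 0% passed and 2.76% had an unadjusted p under 0.05. The difference was 0.24 for Rgs2 (95% interval -0.15 to 0.62), 0.04 for Rgs4 (-0.24 to 0.32) and -0.05 for Arrb2 (-0.33 to 0.22). Without GnRH males 18 and 21 the value for Rgs2 was 0.03 and that for Arrb2 was 0.04. Among placebo animals, 0 of the 9 genes passed by limma between males and females, where 0.047% of all genes did, with 0 of 9 at an unadjusted p under 0.05 (3.07% of all genes), and differences ran from -0.09 to 0.13. Among GnRH animals 0 of the 9 passed by limma, where 0.0522% of all genes did, and Rgs2 alone had an unadjusted p under 0.05 (5.53% of all genes), with 10.95 in males and 10.68 in females, a difference of 0.27 (adjusted p = 0.878). In order of group means, Arrb2 was highest in GnRH females (10.31), followed by GnRH males (10.19), placebo females (9.82) and placebo males (9.75), and the neighbours GnRH males and GnRH females did not differ past the threshold (adjusted p = 0.931), nor did placebo males and placebo females (adjusted p = 0.999). Rgs2 was highest in GnRH males (10.95), followed by GnRH females (10.68), placebo males (10.43) and placebo females (10.40). Neither pair of like-treated neighbours differed past the threshold (adjusted p = 0.878 within GnRH and 0.999 within placebo).

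Pooled over the 4 groups, animals of the same group differed more in Rgs2 than in most genes, and GnRH males had the largest SD. Its pooled within-group SD of 0.25 was above that of 96.9% of the genes tested, whose median was 0.12. The SD of Rgs2 was 0.39 in GnRH males, where animals 18 and 21 had 11.49 and 11.64 and the others 10.61 to 10.92. It was 0.13 in placebo males, 0.18 in GnRH females and 0.10 in placebo females. Arrb2 (0.18, above 87.9% of genes) and Rgs4 (0.18, above 87.1%) also varied more than the median gene. So did Rgs16 (above 77.7%), Rgs10 (above 76.8%), Grk5 (above 74.2%) and Arrb1 (above 65.8%). Rgs3 (0.11, above 47.8%) lay close to the median, and Grk6 (0.09, above 28.0%) varied less.

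The genes whose values followed each of the 9 most closely over the 25 libraries were found by Pearson's r, taking the 3 highest among all named genes tested. They are a description of libraries that share the treatment groups and the scaling. Rgs2 was followed by Egr3, an immediate early transcription factor (r = 0.94), Srf, the serum response factor (0.93), and Cldn1, a tight-junction protein (0.93). These values were 0.80, 0.76 and 0.75 without GnRH males 18 and 21. Arrb2 was followed by Aldoa, an enzyme of glycolysis (0.88), Kcna4, a potassium channel subunit (0.87), and Usp28, a deubiquitinase (0.87), and these stayed at 0.87 to 0.88 without the same 2 animals. Srf was 0.35 higher with GnRH on average (adjusted p = 0.0493), while Egr3, with 0.97 (adjusted p = 0.0807), and Cldn1, with 0.32 (adjusted p = 0.0692), did not pass. Of the genes that followed Arrb2, Kcna4 was 0.56 higher with GnRH on average (adjusted p = 0.00039 by limma). Usp28 was 0.23 higher (adjusted p = 0.00271) and Aldoa 0.18 higher (adjusted p = 0.0181). Genes chosen by likeness to a gene that differs with GnRH tend to differ with it too. These p-values are therefore no separate evidence. Rgs4 was followed by Pfkfb3 (0.75), Btg1 (0.74) and Sqstm1 (0.70), Rgs16 by Bcl3 (0.74), Epha1 (0.73) and Car10 (0.72), Rgs3 by Kctd1 (0.79), Emp2 (0.76) and Amph (0.73), and Rgs10 by Srsf2 (0.72), Rasgrp4 (0.69) and Mrps33 (0.66). Arrb1 was followed by Sox4 (0.81), Lrp4 (0.80) and Abcc4 (0.80), Grk5 by Phlpp1 (0.78), Ece1 (0.78) and Eml6 (0.78), and Grk6 by Ip6k3 (0.66), Sowahb (0.66) and Ctdsp2 (0.65). Of the genes that followed the other 7, Btg1, an inhibitor of proliferation, was 0.26 higher with GnRH on average (adjusted p = 0.000934) and the other 20 did not pass. Among the 9 genes themselves the highest r was 0.61, between Rgs2 and Grk6, and the lowest was -0.43, between Rgs2 and Rgs16.

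The other listed genes of the RGS, receptor kinase, arrestin and G-protein families gave 0 calls by limma in females, in males or on average. Of 20 other RGS-domain genes and their binding partners, 15 were tested. An unadjusted p under 0.05 on average was found for 4 of these 15, a share above the 12% of all genes. The median difference of the 15 was -0.05. Rgs11, an RGS protein that pairs with G-beta 5, had 0.21 (adjusted p = 0.0933), Axin2, an RGS-domain scaffold of Wnt signalling, -0.19 (adjusted p = 0.0698) and Rgs9 0.08 (adjusted p = 0.368). Of 12 other receptor kinases and arrestins, 9 were tested, with 0 at an unadjusted p under 0.05 on average and a median of 0.04. They were the kinases Grk2, Grk3 and Grk4, the arrestin Sag, and the arrestin-domain genes Arrdc1, Arrdc2, Arrdc3, Arrdc4 and Txnip. Sag, the visual arrestin, had 0.06 (adjusted p = 0.567), Grk2, the kinase that G-beta and gamma subunits recruit, 0.03 (adjusted p = 0.756) and Grk4, a kinase of the subfamily of Grk5 and Grk6, -0.05 (adjusted p = 0.768).

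All 13 G-protein alpha subunits listed were tested by limma, with 1 at an unadjusted p under 0.05 on average (12% of all genes). Their median was -0.04. Gnaq, the Gq subunit through which the GnRH receptor signals, had -0.17 (95% interval -0.31 to -0.04, adjusted p = 0.243), Gnas 0.08 (adjusted p = 0.42) and Gnai2 0.06 (adjusted p = 0.514). Of 15 beta and gamma subunits 13 were tested, with 2 at an unadjusted p under 0.05 and a median of -0.03, among them Gng2 with -0.15 (adjusted p = 0.164), Gng11 with 0.14 (adjusted p = 0.377) and Gnb1 with -0.07 (adjusted p = 0.43).

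**Figure D4:**
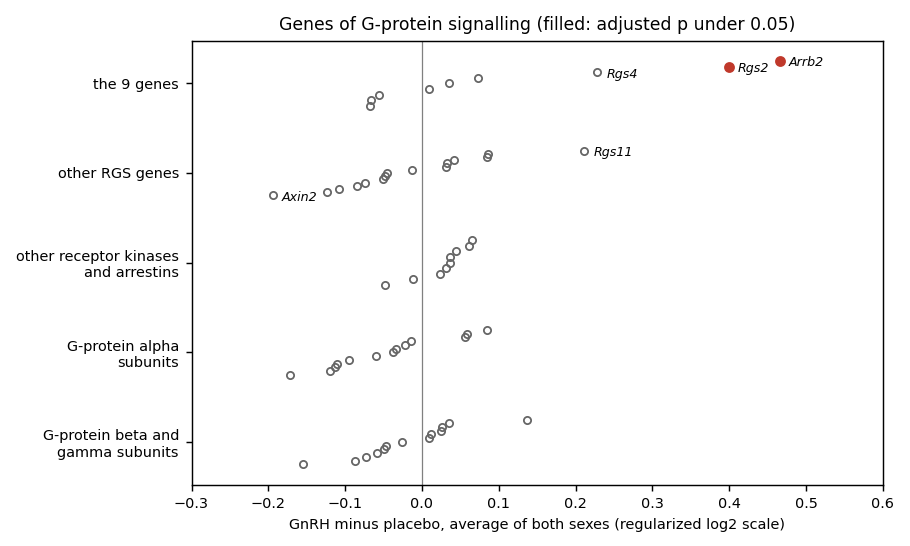
Difference between GnRH and placebo animals, averaged over the sexes, for each tested gene of 5 groups of G-protein signalling genes on the regularized log2 scale; each point is 1 gene, ordered by its difference within a row. Filled points passed an adjusted p of 0.05, which held for Arrb2 (0.47) and Rgs2 (0.40) and for 0 genes of the other 4 rows.

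Several RGS genes lie side by side on chromosome 1. Rgs2 is followed, with no other protein-coding gene between them, by Rgs13, Rgs1, Rgs21 and Rgs18 (GENCODE M21), and the means of these 4 over the 25 libraries were 1.25, 1.69, -2.22 and 2.46, under the filter of 3. Rgs16 lies beside Rgs8, whose averaged difference was -0.11 (adjusted p = 0.585), and Rgs4 beside Rgs5, a gene of pericytes, with 0.04 (adjusted p = 0.832).

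Markers of the cells that could carry these transcripts were read beside them. In bulk tissue, more cells of a type and more RNA per cell cannot be told apart. Of 8 macrophage markers 0 passed by limma on average, with 0 at an unadjusted p under 0.05, and the list's mean ran from 7.90 to 8.22 in GnRH females and 7.79 to 8.21 in placebo females, and from 7.73 to 8.15 in GnRH males and 7.70 to 8.16 in placebo males. Of 6 endothelial markers, 2 rose on average by limma, where 1.42% of all genes did. They were Emcn, by 0.25 (adjusted p = 0.00289), and Plvap, by 0.18 (adjusted p = 0.0238). The list's mean ran from 9.76 to 10.05 in GnRH females and 9.59 to 9.83 in placebo females. In males it ran from 9.73 to 10.07 with GnRH and 9.70 to 9.80 with placebo. Of 5 gonadotrope genes, Fshb, Gnrhr, the GnRH receptor (0.66, adjusted p = 0.00109), and Lhb, the beta subunit of luteinizing hormone (0.38, adjusted p = 0.0141), rose, Nr5a1, a transcription factor of gonadotropes, fell (-0.38, adjusted p = 0.0222), and Cga, the common alpha subunit, had 0.41 (adjusted p = 0.0707). The list's mean ran from 11.27 to 11.60 in GnRH females and 10.49 to 10.93 in placebo females, and from 11.18 to 11.70 in GnRH males and 10.45 to 10.86 in placebo males. A further 8 lists covered pericytes and smooth muscle, posterior lobe, somatotropes, lactotropes, thyrotropes, corticotropes and melanotropes, stem cells and blood cells. On average 0 of their 25 genes passed the threshold by limma, and 5 had an unadjusted p under 0.05 (12% of all genes). All markers of these lists passed the filter on low values. Their part in the differences of Arrb2 and Rgs2 was not tested.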

How the data were processed

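The authors deposited 1 table of log2 values, which they made by a regularized log transform, per the file's name; it normalises libraries to each other and pulls noisy values to the gene's mean, which understates differences of low genes. The submitters' processing notes name mm10 as build and the tools bcl2fastq, STAR and featureCounts; for versions, annotation and strand setting nothing was given in the sources used. Counts were not used and the depth is unknown. Groups followed the sample labels, which place 8 animals in the male GnRH group where the design text speaks of 5 to 7. The labels give no batch and do not state whether animals shared a litter.

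A model with a mean for each of the 4 groups was fitted to 25 libraries in limma 3.58.1 (R 4.3.3), with 21 residual degrees of freedom and a prior variance that followed the mean. Tests were two-sided, adjusted by the Benjamini-Hochberg method over 19141 genes, with a threshold of 0.05, in 6 contrasts. The fit was checked on simulated data. Gene positions came from GENCODE M21 (GRCm38) and promoter windows from RefSeq. The 9 genes, the lists, the naming rule (all 9 genes, list genes past the threshold or else the 3 of smallest p, and the 3 genes most like each) and the settings were chosen with earlier results of these data known. Adjusted p-values come from limma.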

Additional observations from a re-analysis of the deposited data

Results flagged for a closer look

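Of 36 checks of 9 genes in 4 groups for a single distant animal, 1 was met, and chance meets about 1 in 20. Rgs2 in GnRH female 10 was 10.33, the lowest of its group, with the next animal at 10.67, a gap of 0.689 of the whole range of the group. The same animal had the lowest Rgs4 (7.73) and the lowest Atf3 (6.55, above the 6.32 of the highest placebo female) of the GnRH females. Its Fshb of 11.13 was also the lowest of them and lay above every placebo female, the highest of which had 10.65.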

How the results depend on the processing

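No paired analysis was possible because no replicate number is shared between groups. Each of the 9 genes had 1 row, so the choice of row had no alternative to try. Among all genes, 19 passed in females, 95 in males and 327 on average. Without a filter these were 7, 42 and 223; with array weights they were 62, 239 and 942; without GnRH males 18 and 21, 32 and 38 passed in females and males. Leaving out 1 animal gave 4 to 67 in females, 46 to 153 in males and 8 to 17 for males against females within GnRH. Of the 9 genes, the number past the threshold in females was 0 without a filter, after quantile normalization or without a variance trend, and 0 to 1 without 1 animal. In males it was 0 without a filter, 2 with a mean of at least 6, 2 with array weights, and 0 to 2 without 1 animal. On average it was 1 without a filter. Without a filter p-values were adjusted over 33304 genes; the cause of the other changes was not tested.

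The differences followed through the settings were the GnRH effects of each gene and the sex comparisons of Rgs2, Rgs4 and Arrb2 alone. Among these, signs turned only for differences near 0. Grk5 gave -0.0018 in females after quantile normalization, -0.056, -0.013 and -0.035 in females, males and on average with array weights, and -0.023 in males and -0.0094 on average without GnRH males 18 and 21. Without 1 animal Grk5 ran from -0.049 to 0.054 in females, -0.025 to 0.045 in males and -0.017 to 0.034 on average, Rgs10 from -0.0045 to 0.11 in females and -0.014 to 0.074 in males, and Rgs2 between the sexes within placebo from -0.0035 to 0.065. The sex difference of the GnRH effect ran from -0.048 to 0.14 for Rgs4, and was 0.040 for Arrb2 without GnRH males 18 and 21. The depth being unknown, no counting error can be given.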
